A study of Mus musculus with 12 samples.

Results

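Imprinted control regions are short stretches of DNA whose cytosines are methylated on the chromosome from 1 parent and unmethylated on the chromosome from the other. The data here are methylation levels at CCCGGG sites in 10 windows around such regions, drawn on the mouse build mm9 and named after Peg10, Mest, Peg3, Snrpn, H19, Kcnq1ot1, Plagl1, Grb10, Nnat and Gnas. The tables held 40 sites in these windows. A site was kept when it had at least 20 reads in each of 11 colonic adenomas, which left 16 of the 40 sites, among 24503 autosomal sites kept in all. The kept sites lay in only 2 windows: 14 of 20 in Gnas and 2 of 2 in Grb10. Each level was set beside 50%, the level that a site methylated on 1 of 2 parental chromosomes in every cell would have. Which sites of a window lie inside the imprinted region itself was not determined, so 50% need not apply to every site.

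The adenomas came from C57BL/6J mice killed at 150 to 160 days, and every mouse carried the Min allele of Apc, which gives rise to intestinal adenomas. Control adenomas were Tet1+/+ and Tdg+/+ beside ApcMin/+. The Tet1 null adenomas were Tet1-/- with both Tdg alleles intact, the Tdg heterozygous adenomas carried TdgN151A/+ with both Tet1 alleles intact, and the double heterozygous adenomas carried Tet1+/- together with TdgN151A/+. Each genotype had 3 adenomas, of which double heterozygous adenoma 3, a shallow library, was left out, so that group had 2. Methylation was measured by DREAM, in which SmaI cuts unmethylated CCCGGG, XmaI then cuts the methylated sites that remain, and reads from both kinds of cut are counted at each site. Levels are the percentages that the authors adjusted with spiked standards of known methylation, unless called raw. Nothing in the labels states that the 3 adenomas of a genotype are from different animals, and the tests below therefore weigh only the spread between these adenomas. Whole adenomas were dissected, and a level averages all cells in the piece. Reads of inbred mice do not carry the parent of origin, so no level could be split into its 2 parental chromosomes.

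Most imprints are set in germ cells and then kept through the rest of life by the maintenance methyltransferase DNMT1 and the zinc finger protein ZFP57. TET1 oxidises methylated cytosine, TDG cuts out the oxidised base, and the N151A change removes the catalytic activity of TDG. TET1 is also known to act in the erasure of imprints in primordial germ cells. In 9 of the 10 regions the maternal chromosome is the methylated one, whereas the H19 region is methylated on the paternal chromosome. The genes beside these regions do many things. Grb10 is an adaptor that restrains insulin and growth factor receptors, Plagl1 and Peg3 encode zinc finger proteins, and Snrpn encodes a splicing protein. Peg10 derives from a retrotransposon, Mest encodes a hydrolase and Nnat a small membrane protein. H19 and Kcnq1ot1 are long RNAs that are not translated. Gnas encodes the stimulatory G protein alpha subunit, and its locus holds several promoters, some methylated on the maternal chromosome, 1 on the paternal chromosome and 1, that of Gnas itself, on neither.

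The 3 promoter stretches below show what a CCCGGG site of these genes looks like in its surroundings. They are from RefSeq on the build GRCm38.p6, 100 bases each, 5′ to 3′ on the gene's strand, with the CCCGGG that DREAM reads in capitals. The table of promoters, from 250 bases before to 50 bases after each gene start, had 17 entries for 8 of the 10 genes, with no entry matched for Peg10 and H19. Of these, 3 held CCCGGG (17.6%), beside 4436 of 32851 promoters of all genes (13.5%). The Gnas stretch is chr2:174329756-174329855 on the plus strand, and the Grb10 stretches are chr11:12028122-12028221 and chr11:12037571-12037670 on the minus strand.
Gnas: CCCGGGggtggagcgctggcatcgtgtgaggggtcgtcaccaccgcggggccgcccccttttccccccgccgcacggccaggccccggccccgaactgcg
Grb10, first: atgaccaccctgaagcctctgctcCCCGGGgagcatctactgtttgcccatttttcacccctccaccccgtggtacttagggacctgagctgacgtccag
Grb10, second: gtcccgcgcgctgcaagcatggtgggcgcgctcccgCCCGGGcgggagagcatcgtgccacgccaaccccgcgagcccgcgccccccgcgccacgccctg
The CCCGGG began 250, 226 and 214 bases before the gene start in these stretches. The Gnas stretch held 13 CpGs, the first Grb10 stretch 3 and the second 17. The reads were placed on mm9, for which no annotation was used here, so it was not determined which measured site each stretch corresponds to, and no site below is assigned to a promoter, an exon or an intron.

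Only Gnas and Grb10 had the depth for levels per adenoma. The 11 adenomas had 8213211 to 18865833 reads on sites, and the adenoma left out had 2349576. At the 16 kept sites the median depth of an adenoma was 236.5 to 606 reads. Over the 11 adenomas together the Gnas window held 99377 reads on 20 sites and the Grb10 window 19458 reads on 2 sites. The Nnat window held only 402 reads on 5 sites, H19 331 on 6, Plagl1 208 on 2, Peg3 141 on 2, Mest 79 on 2 and Kcnq1ot1 42 on 1. The Peg10 and Snrpn windows had no site in the tables. The shallowest kept site, Gnas site 13, had 52 reads in its shallowest adenoma, while the deepest site that was not kept, Gnas 174125768, had 15 in its shallowest and 37 in its deepest.

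Depth differed with the distance to the nearest other CCCGGG site. DREAM sequences fragments that lie between 2 such cuts. All 12 member sites whose nearest neighbour was 100 to under 500 bp away were kept. None of the 17 sites whose nearest neighbour was 1000 bp or more away was kept. Of the 10 member sites with a neighbour under 50 bp away, 4 were kept. Over all autosomal sites the kept share was 13.5% under 50 bp, 13.0% at 50 to under 100 bp, 58.6% at 100 to under 250 bp, 87.1% at 250 to under 500 bp, 24.5% at 500 to under 1000 bp and 1.18% at 1000 bp or more. Some neighbours had nearly equal depths: Gnas sites 1 and 2, which are 444 bp apart, had read ratios of 0.974 to 1.01 in the 11 adenomas, and the 2 Grb10 sites, 316 bp apart, ratios of 0.990 to 1.01. Other neighbours at like distances did not. Site 6 had 2.67 to 3.89 times the reads of Gnas site 5, which is 189 bp away, and site 10 had 3.29 to 4.13 times those of site 9, at 419 bp. Site 8 had 0.321 to 0.498 times the reads of site 7, at 206 bp, and site 12 had 0.341 to 0.378 times those of site 11, at 369 bp. Neighbouring sites can share molecules and were not treated as independent measurements.

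**Figure D1:**
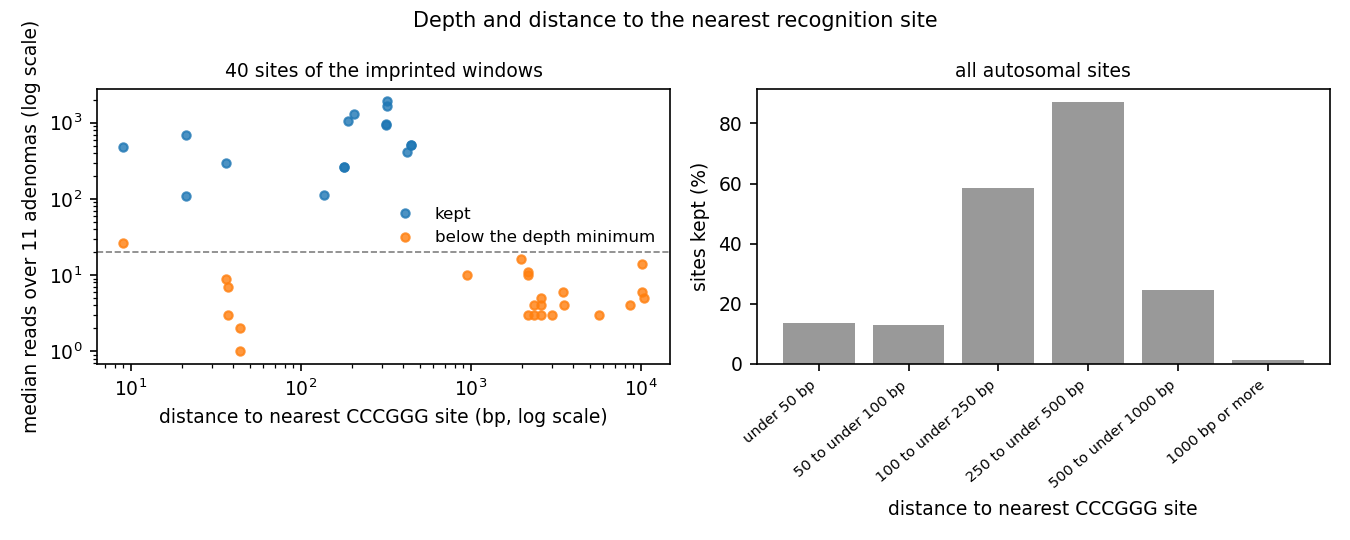
Left: each of the 40 sites of the imprinted windows by the distance to its nearest CCCGGG site in bp (x, log scale) and its median reads over 11 adenomas (y, log scale), with the minimum of 20 reads as a dashed line; kept sites are blue and the others orange. Right: bars of the share of all autosomal sites kept in each class of distance, 87.1% at 250 to under 500 bp and 1.18% at 1000 bp or more.

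The 16 kept sites were more often partly methylated than sites elsewhere. In the mean of the 3 control adenomas 10 of 16 lay between 20 and 80% (62.5%), against 4773 of 24487 other kept autosomal sites (19.5%). Of the remaining member sites, 5 lay below 20% and 1 above 80%. These are counts without a test, because neighbouring sites can share molecules.

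Gnas, the window with most sites, fell into 3 blocks separated by gaps of over 5 kb. Its 9 partly methylated sites averaged 39.4% ± 2.69 (SD, n = 11 adenomas), a difference of -10.6 points from 50%. The lowest adenoma was double heterozygous adenoma 1 at 35.9%, the median 38.8% and the highest Tet1 null adenoma 3 at 45.3%. All 11 adenomas were below 50%. The genotype means were 39.6% ± 1.05 in control (SD, n = 3), 40.9% ± 4.49 in Tet1 null (n = 3), 38.1% ± 0.628 in Tdg heterozygotes (n = 3), and 38.8% ± 4.06 in double heterozygotes (n = 2). The 8 mutant adenomas, whose levels did not enter the choice of the partly methylated sites, averaged 39.3% ± 3.16.

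The first Gnas block, chr2 174110191 to 174110635, held sites 1 and 2. Its level was 37.3% ± 2.10 over 11 adenomas. Site 1 stood at 32.9, 39.99 and 38.2% in the controls, 37.5, 36.3 and 34.6% in Tet1 null, 36.98, 38.4 and 35.9% in Tdg heterozygotes, and 36.9 and 37.2% in double heterozygotes. The lowest and the highest of the 11 values were both controls, so all 3 mutant genotypes lay inside the control range. Site 2 followed site 1 closely, with differences of -0.05 to 1.96 points in the same adenoma.

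The second block, chr2 174123795 to 174125759, held sites 3 to 8, and its mean level stepped down along the chromosome. The means over 11 adenomas were 57.7% at site 3, 49.1% at site 4, 41.4% at site 5, 39.3% at site 6, 35.0% at site 7 and 32.5% at site 8. From site 6 to site 7 the level was lower in every adenoma, with changes of -9.35 to -1.21 points, and from site 7 to site 8 it was again lower in every adenoma, with changes of -4.52 to -0.70 points. From site 3 to site 4, 180 bp away, the change ran from -20.2 to 0.32 points, and from site 4 to site 5 from -24.8 to 1.58 points. From site 5 to site 6 it ran from -7.06 to 7.52 points: the level was lower at site 6 in 9 adenomas and higher in both double heterozygous ones, at 38.7 and 42.5% after 35.8 and 35.0%. Thus single sites less than 2 kb apart within 1 imprinted window lay on opposite sides of 50%.

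Site 7, chr2 174125553, was the partly methylated Gnas site with the highest minimum depth, 630 to 1366 reads. Its level was 34.7, 35.2 and 36.6% in controls, 34, 35.4 and 34.8% in Tet1 null, 33.6, 35.0 and 33.4% in Tdg heterozygotes, and 35.8 and 36.8% in double heterozygotes. The 11 values span 33.4 to 36.8%, and the genotypes overlap. The 95% exact binomial interval of its raw level lay below 50% in all 11 adenomas. Exact intervals given for other sites are also of raw levels. Sites 1, 2, 8 and 9 likewise had all 11 intervals below 50%, site 6 had 10 of 11 and site 5 had 8 of 11.

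Site 3, chr2 174123795, was the Gnas site that differed most between adenomas. It stood at 55.0, 58.4 and 49.8% in controls, 45.2, 69.0 and 84.4% in Tet1 null, 53.6, 54.8 and 58.6% in Tdg heterozygotes, and 46.4 and 59.4% in double heterozygotes. The 3 Tet1 null adenomas held both the lowest and the highest of the 11 values. Tet1 null adenoma 3, at 84.4% from 173 reads, was also the highest at sites 4 (64.3%), 5 (51.2%) and 6 (44.1%), while at sites 7 and 8 it stood at 34.8 and 30.9%, within the other adenomas. It had the fewest reads of the 11, 8213211, and whether depth had a part in its levels was not tested. At sites 3 and 4 the interval included 50% in 6 of 11 adenomas each; at site 3 it lay above 50% in the other 5, and at site 4 above in 2 and below in 3.

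The third block, chr2 174154841 to 174156106, joined a partly methylated site to 5 unmethylated ones. Site 9 stood at 28.1, 26.4 and 29.4% in controls, 21.8, 24.4 and 28.8% in Tet1 null, 30.02, 12.8 and 22.7% in Tdg heterozygotes, and 18.9 and 31.8% in double heterozygotes. All 3 controls fell between 26.4 and 29.4%, and mutant adenomas lay on both sides of them. Site 10 is only 419 bp further on and was at 0% in 10 of 11 adenomas. Sites 10 to 14 together gave 10 methylated reads of 45786, a raw level of 0.0218% (95% exact interval 0.0105 to 0.0402%). For single adenomas at 0, a count of 0 allows up to 0.158 to 0.440% at site 10, but up to 2.31 to 5.77% at the shallower site 13 (3 counts of the reads).

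**Figure D2:**
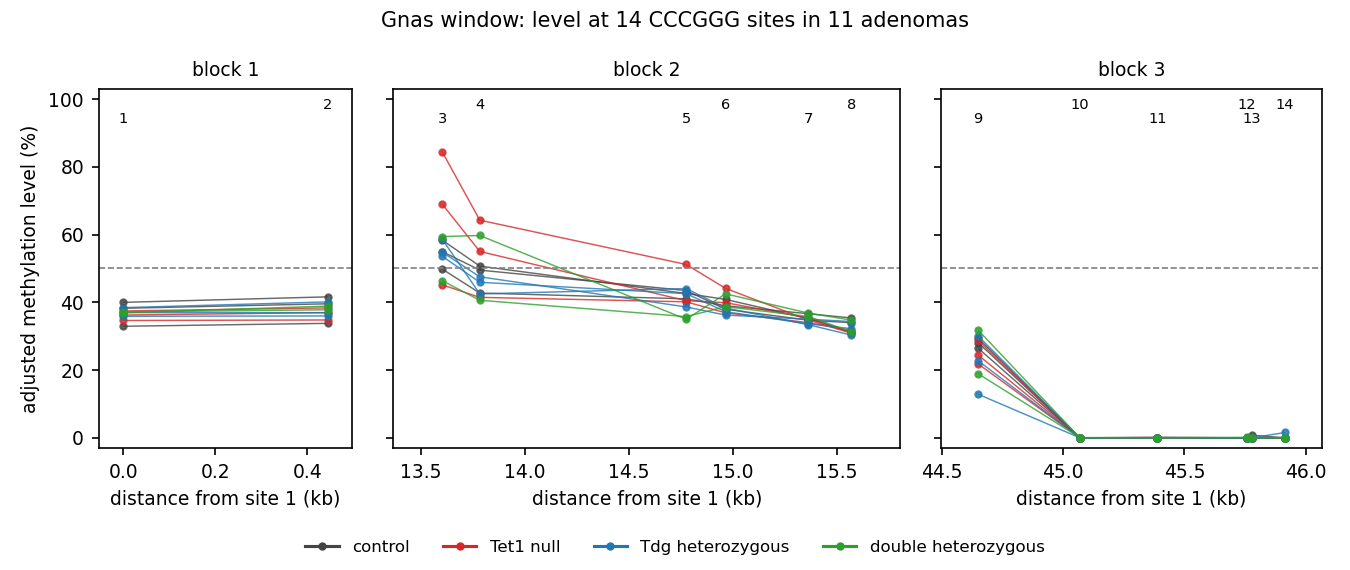
Adjusted methylation level in percent (y) at the 14 kept Gnas sites by distance from site 1 in kb (x), 1 line per adenoma coloured by genotype, in 3 panels for the 3 blocks, with 50% as a dashed line. The means over 11 adenomas step down from site 3 to site 8, although single lines rise, as both double heterozygous ones do from site 5 to site 6; levels fall from 12.8 to 31.8% at site 9 to at most 0.06% at site 10.

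Both kept Grb10 sites lay above 50% in all 11 adenomas, whereas among the kept Gnas sites only site 3 had a mean above 50%. Site 1, chr11 11928198, with 491 to 1033 reads, was at 61.0, 68.5 and 73.9% in controls, 69.8, 78.1 and 63.5% in Tet1 null, 70.01, 57.7 and 77.5% in Tdg heterozygotes, and 70.4 and 82.4% in double heterozygotes. The lowest was Tdg heterozygous adenoma 2 and the highest double heterozygous adenoma 2, and the genotypes overlap. Its mean was 70.3% ± 7.53 (SD, n = 11), and all 11 intervals lay above 50%. The genotype means were 67.8% ± 6.45 in controls, 70.5% ± 7.30 in Tet1 null, 68.4% ± 10.02 in Tdg heterozygotes, and 76.4% ± 8.49 in double heterozygotes. Site 2, chr11 11928514, was at 94.9, 75.8 and 94.8% in controls, 58.3, 90.7 and 91.1% in Tet1 null, 88.4, 90.7 and 89.4% in Tdg heterozygotes, and 93.4 and 93.9% in double heterozygotes. Here 9 of 11 adenomas lay between 88.4 and 94.9%, with Tet1 null adenoma 1 and control adenoma 2 below them. The difference between the 2 sites was not constant: site 2 minus site 1 ran from -11.5 to 33.9 points, with a median of 18.4.

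The design asks whether loss of TET1, a catalytic change in 1 copy of TDG, or both in part, moved these sites. The edgeR quasi-likelihood test on methylated and unmethylated reads, with p-values adjusted by Benjamini-Hochberg over 21016 autosomal sites, called 0 of the 16 member sites at an adjusted p below 0.05 in each of 6 comparisons. For Tet1 null against control, 1.35% of all sites were called. For Tdg heterozygous and for double heterozygous against control, 0 of 21016 sites were called. The share was 1.48% for Tet1 null against Tdg heterozygous and 0.471% for Tet1 null against double heterozygous adenomas, and 0 sites were called for double heterozygous against Tdg heterozygous. With limma on the log2 ratio of methylated to unmethylated reads the member count was 0 as well in all 6, beside 0.933%, 0 and 0 of all sites in the 3 comparisons with control, 1.21% and 0.171% for Tet1 null against the Tdg and the double heterozygotes, and 0 for double against Tdg heterozygotes. At these background shares 0 calls among 16 sites is close to what other sites gave, and a p that misses the threshold does not show that the levels are equal.

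At an unadjusted p below 0.05 the count of member sites was 0 of 16 in each comparison with control, beside 8.05% of all sites for Tet1 null, 3.01% for Tdg heterozygotes and 3.72% for double heterozygotes. It was also 0 of 16 for Tet1 null against Tdg heterozygotes, beside 7.19%, and for double against Tdg heterozygotes, beside 2.71%. The comparison of Tet1 null with double heterozygous adenomas had 1 such site, Grb10 site 2, beside 4.23% of all sites; edgeR gave it an adjusted p of 0.986. All sites were also compared by whether the adenomas of 2 genotypes overlap. None of the 16 member sites had groups apart for Tet1 null against control, where 11.5% of all sites did, and none for Tdg heterozygous against control, where 7.76% did. For double heterozygous against control it was 1 of 16, beside 15.2%. That site was Gnas site 5, named here after its values were seen, at 43.5, 42.6 and 41.0% in control and 35.8 and 35.0% in double heterozygotes. For it edgeR gave an adjusted p of 0.994. The spread in edgeR is estimated with the other tested sites, so this p does not reflect the site's own spread alone. Gnas sites 10 to 14, which are 5 of the 16 member sites, had 10 methylated reads of 45786 in all. At each of them every genotype had an adenoma at 0, so its groups could not lie apart. So few methylated reads also left little room for a small p in edgeR. The counts out of 16 therefore rest mainly on the other member sites.

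For Tet1 null against control the member sites with the smallest p in edgeR were Grb10 site 2, Gnas site 3 and the unmethylated Gnas site 13. Grb10 site 2 had means of 80.04% ± 18.8 in Tet1 null and 88.5% ± 10.96 in control (SD, n = 3 each), with an adjusted p of 0.761 from edgeR. Gnas site 3 had 66.2% ± 19.8 and 54.4% ± 4.31, also with an adjusted p of 0.761 from edgeR. Both differences, -8.45 and 11.8 points, were smaller than the SD of the Tet1 null adenomas. At Gnas site 13 a single control adenoma held the only methylated read of 1119.

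For Tdg heterozygous against control the 3 sites were Gnas sites 14, 13 and 9, all with an adjusted p of 1.0 from edgeR. Site 9 had means of 21.9% ± 8.62 in Tdg heterozygotes, and 28.0% ± 1.46 in control adenomas (SD, n = 3 each). Site 14 had 2 methylated reads of 1128, both in Tdg heterozygous adenoma 1. For double heterozygous against control they were Gnas sites 12 and 10, with 1 methylated read each, and Grb10 site 1, with means of 76.4% ± 8.49 (n = 2) and 67.8% ± 6.45 (n = 3), and an adjusted p of 0.904 from edgeR.

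The limma intervals give the odds ratios compatible with these adenomas. The variance at each site is drawn toward that of all 21016 tested sites, so an interval's width does not reflect that site's own spread alone. At Gnas site 7 limma gave an odds ratio of methylated to unmethylated reads, Tet1 null over control, of 0.983 (95% interval 0.590 to 1.64), 0.941 (0.565 to 1.57) for Tdg heterozygotes and 1.05 (0.593 to 1.86) for double heterozygotes over control. At Gnas site 3 the Tet1 null ratio was 1.79 (0.793 to 4.05), and at Grb10 site 2 it was 0.526 (0.179 to 1.54). For Grb10 site 1 the double heterozygous ratio was 1.59 (0.754 to 3.36). Changes in odds inside these intervals remained possible with 2 or 3 adenomas per genotype. The intervals are not adjusted for the number of sites tested, and their bounds are not limits of detection. The comparisons with control share the same 3 control adenomas.

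**Figure D3:**
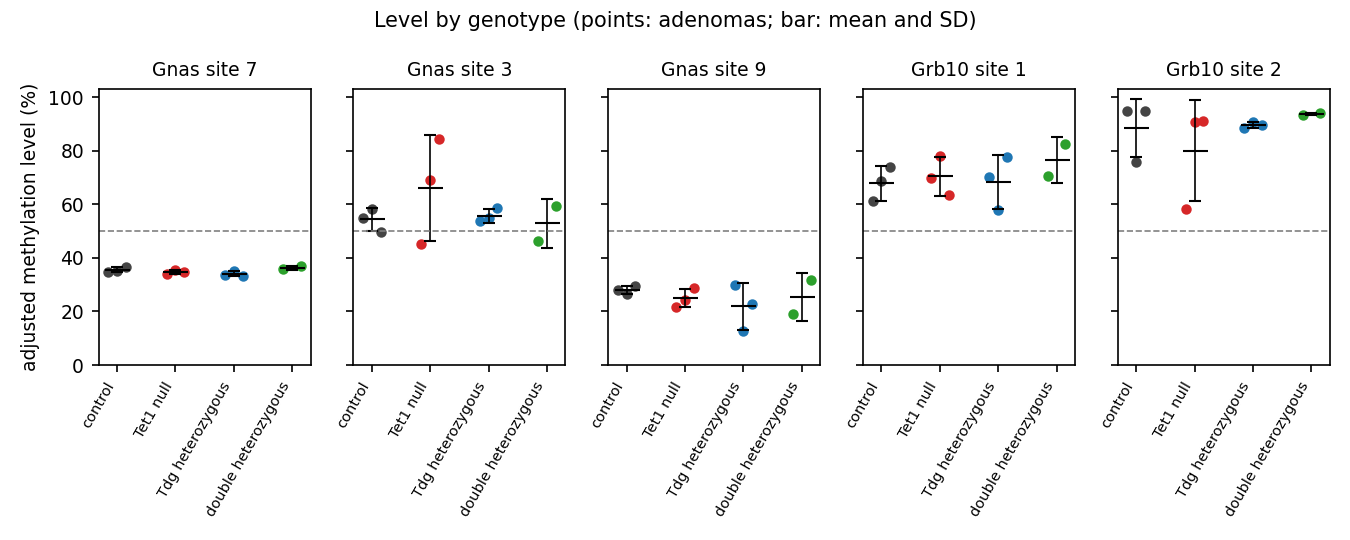
Adjusted methylation level in percent (y) by genotype (x) at Gnas sites 7, 3 and 9 and Grb10 sites 1 and 2; points are adenomas, the horizontal line is the mean and the bar 1 SD, with 50% as a dashed line. Site 7 stays within 33.4 to 36.8% in 11 adenomas, while the Tet1 null adenomas spread from 45.2 to 84.4% at site 3.

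The Gnas sites were steadier between adenomas than other partly methylated sites. The SD over 11 adenomas had a median of 3.41 points at the 10 partly methylated member sites and 2.43 at the 9 of Gnas, against 9.70 at 4773 other autosomal sites of 20 to 80% in control (quartiles 7.31 and 12.3). Counting error was alike in both sets, with a median expected SD of 2.32 and 2.31 points. At 4 of the 10 member sites, Gnas 1, 2, 7 and 8, the SD was no larger than counting error alone would give, which was so at 32 of 4773 others (0.670%). The SDs there were 1.91, 2.33, 1.11 and 1.79 points beside counting SDs of 2.39, 2.40, 1.41 and 2.19. On raw levels Gnas site 2 had an SD of 2.48 points, above its counting SD. No other partly methylated autosomal site had an SD as small as the 1.11 points of Gnas site 7. No test was made of these counts, since sites of a window share adenomas and can share molecules.

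Not every site of the imprinted windows was steady. Gnas sites 3 and 4 had SDs of 11.1 and 7.80 points and Grb10 site 1 one of 7.53, all between the quartiles of the other partly methylated sites. Grb10 site 2, above 80% in controls, had 11 points, and Gnas sites 5, 6 and 9 had 4.39, 2.43 and 5.63. Among sites of 30 to 70% in controls, 5 of 9 member sites had an SD under 2.5 points, a limit chosen after the values were seen, and 0 of 2861 others did, the smallest of these being 2.92. That count is of adjusted levels. On raw levels Gnas site 6 had an SD of 2.89 points, and the 2861 others were not counted on that scale.

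**Figure D4:**
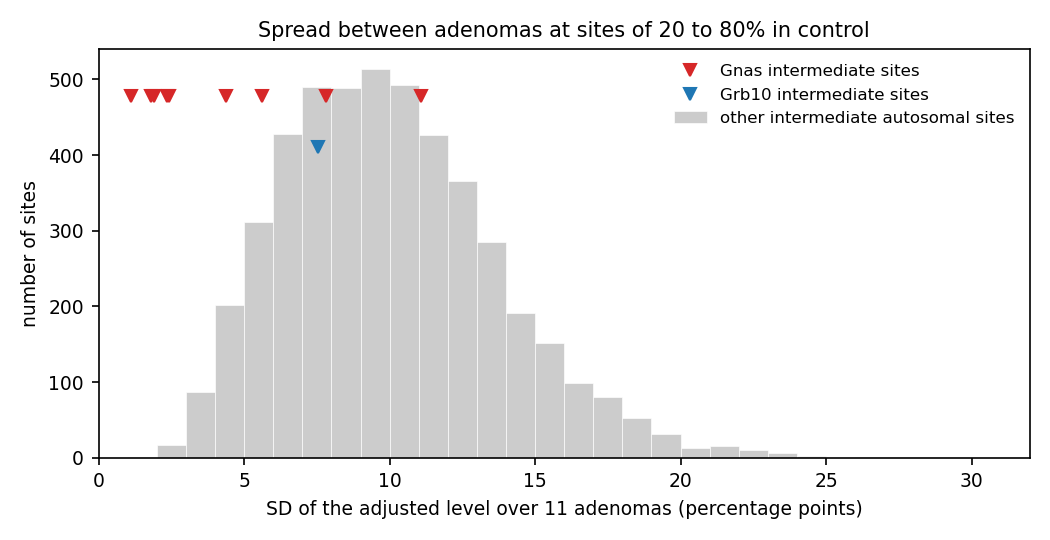
Histogram of the SD of the adjusted level over 11 adenomas in percentage points (x) for 4773 other autosomal sites at 20 to 80% in control (y, number of sites), with triangles for the Gnas (red) and Grb10 (blue) partly methylated sites. Gnas sites 1, 2, 6, 7 and 8 lie left of 2.5 points, whereas Gnas sites 3 and 4 and Grb10 site 1 lie within the bulk of the histogram.

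The other 24 sites of the windows had too few reads in single adenomas, so their reads were pooled over the 11 adenomas, 22 to 296 per site, and described with 95% exact intervals of the raw level. The intervals cover counting error only, and no test was made. The interval included 50% at 9 sites, lay above it at 11 and below it at 4.

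Mest and Peg3, both methylated on the maternal chromosome, each had a site close to 50%. The 2 Mest sites stood at 62.2% (44.8 to 77.5%, 37 reads) and 45.2% (29.8 to 61.3%, 42 reads). Peg3 chr7 6682654 was at 51.4% (41.5 to 61.2%, 107 reads), and by genotype at 63.6% in controls, 42.9% in Tet1 null, 55.6% in Tdg heterozygotes, and 46.7% in double heterozygotes, with intervals that overlap. The second Peg3 site, chr7 6684826, was higher at 79.4% (62.1 to 91.3%, 34 reads).

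In the H19 window levels ran from 30.6 to 96.4% over 6 sites. The site at chr7 149764071, with 120 reads, stood at 65.0% (55.8 to 73.5%). The sites at 149761874, 149761918 and 149771183 were at 31.0, 31.8 and 30.6% on 22 to 36 reads, and those at 149758377 and 149773767 at 86.8 and 96.4%. The only Kcnq1ot1 site, chr7 150481348, was at 33.3% (19.6 to 49.5%, 42 reads). The 2 Plagl1 sites were at 95.2% (145 reads) and 73.0% (60.3 to 83.4%, 63 reads). Of the 5 Nnat sites, 3 had levels of 84.9 to 91.5% and 1 had 61.8% on 34 reads. The remaining site, chr2 157391719, had 0 methylated reads of 63, with an exact upper limit of 5.69%.

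The 6 shallow Gnas sites ranged from 27.7 to 87.5%, and some stood beside deep sites with other levels. Gnas 174125768 lies 9 bp from site 8 and had 87.5% (83.2 to 91.0%, 296 reads), while site 8 averaged 32.5%. Gnas 174124930, 36 bp from site 5, had 60% (49.7 to 69.7%, 100 reads) beside 41.4% at site 5. Reads of the shallow site of each pair were far fewer, and whether depth had a part in the gap was not tested.

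**Figure D5:**
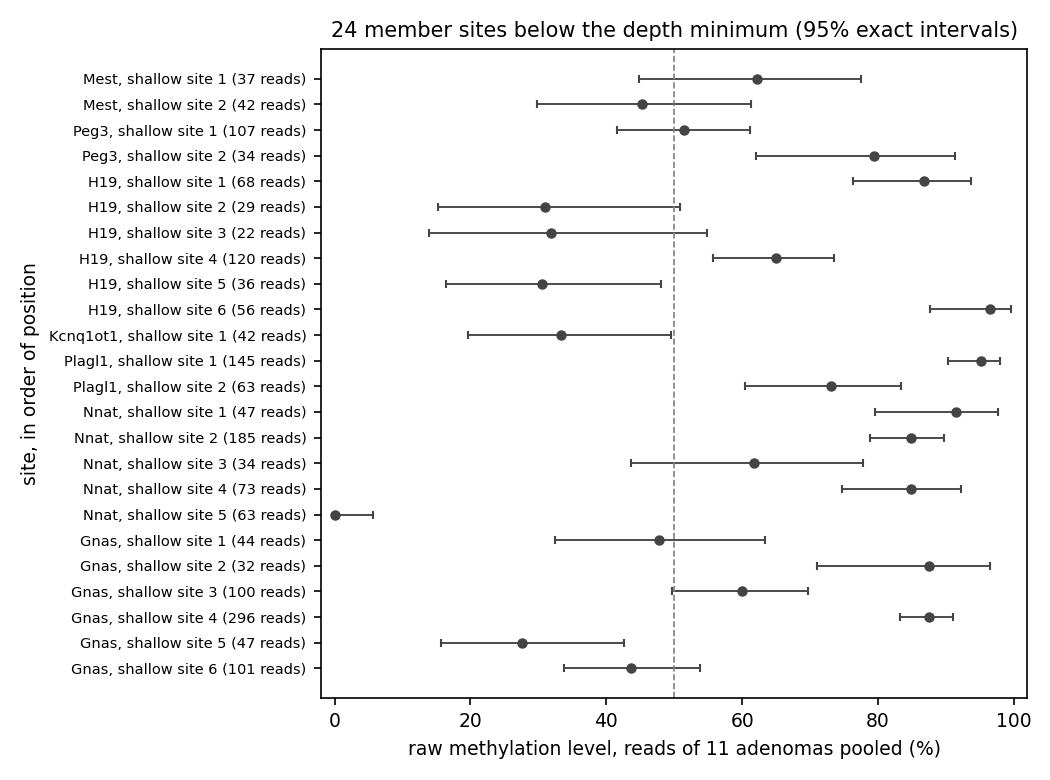
Raw methylation level in percent (x) of the reads of 11 adenomas pooled at each of the 24 member sites under the depth minimum (y, in order of position, with reads in brackets); bars are 95% exact binomial intervals and the dashed line is 50%. The bars cross 50% at 9 sites, lie above it at 11 and below it at 4.

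A further list of 11 imprinted windows (Airn/Igf2r, Meg3, Rasgrf1, Zrsr1, Inpp5f, Mcts2, Nap1l5, Peg13, Slc38a4, Impact and Cdh15) had 16 sites in the tables, of which 3 were kept, all in Cdh15, which encodes a cadherin and carries a maternal imprint. In edgeR 0 of these 3 were called in each of the 6 comparisons. At chr8 125389045 the level was 75.2, 36.5 and 40.1% in controls, 24.1, 65.7 and 72.7% in Tet1 null, 72.1, 49.9 and 33.4% in Tdg heterozygotes, and 87.0 and 39.2% in double heterozygotes. Each genotype held adenomas far above and far below 50%. The SD there was 21.0 points, larger than at 99.1% of other partly methylated sites, and at the other two Cdh15 sites 17.2 and 18.9 points. Within imprinted windows, the Cdh15 sites and Gnas site 7 thus lay at opposite ends of the spread. Shallow sites of this list included Rasgrf1 at 58.5% (65 reads), Zrsr1 at 58.9% (73 reads) and Mcts2 at 36.6% (142 reads).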

How the data were processed

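DREAM libraries of 12 colonic adenomas were analysed, 1 table per adenoma. The deposited tables give counts of methylated and unmethylated reads per CCCGGG site on mm9, per the file headers. They also give the raw percent and the percent that the authors adjusted with spiked standards. After adjustment, 0.12 to 1.51% was read at the unmethylated and 98.9 to 99.2% at the methylated standards in the 11 adenomas used. The standards were sorted into these kinds here by their own adjusted levels, so the readings are not an independent check of accuracy. The submitters' processing notes name Trim Galore, Bowtie2 and mm9, without versions or parameters, while the protocol in the labels names a rat build. The labels state a minimum of 100 reads, but the deposited tables list sites below it.

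Counts were tested with edgeR 4.0.16 (R 4.3.3): a depth term per adenoma, methylated counts by genotype, no dispersion trend, 11 adenomas, autosomal sites with at least 20 reads in each, and Benjamini-Hochberg adjustment over 21016 sites (3487 further sites with reads of 1 state were left out). limma 3.58.1 used log2((methylated + 2)/(unmethylated + 2)) and gave the intervals of differences. The steps were tested on simulated data. Intervals and floors cover counting error only, since reads carry no molecular identifiers. Sites named in full were, by rule, the partly methylated site with the highest minimum depth in each window and the 3 member sites with the smallest p per comparison with control; others were described after their values were seen. The windows, members and lists were chosen with earlier results of these data known, and the further list of imprinted windows was written from general knowledge of the loci. Depth limits, level limits, tests and samples were varied as given at the end, and the windows were not varied. Replicate numbers were not used as pairs in the main fit. Over 15 same-number pairs the correlation of deviations from genotype means was -0.372 to 0.251. Deviations from the mean of so few adenomas are tied to each other, so these correlations cannot settle whether the numbers pair adenomas. By reads on the Y chromosome 7 of 12 adenomas were from males. These were control adenoma 1, Tet1 null adenomas 1 and 2, Tdg heterozygous adenoma 2 and every double heterozygous adenoma. Sex was thus uneven between genotypes. With sex as a covariate in edgeR, 0 member sites were called in each comparison.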

Additional observations from a re-analysis of the deposited data

How the results depend on the processing

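The count of called member sites was 0 in all 21 other settings of each of the 6 comparisons, 10 changes of depth limit, test, samples or unit and 11 fits without 1 adenoma. The smallest adjusted p of a member site over these settings was 0.387 for Tet1 null against control. Over all sites the call counts did move: for Tet1 null against control, 280 higher and 3 lower sites became 65 and 1 with limma on the logit of the adjusted level, and 118 to 373 higher sites without 1 adenoma. For Tet1 null against Tdg heterozygous, 311 higher became 58 with that setting and 180 to 373 without 1 adenoma. For Tet1 null against double heterozygous, 98 higher became 20, and 24 to 93 without 1 adenoma. With the replicate number as a block, 0 member sites were called in each comparison and 200 higher and 2 lower sites of all for Tet1 null against control; the best match of an adenoma had the same number in 2 of 11.

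The Gnas level was 38.8 to 39.7% without 1 adenoma and 25.3% over all kept sites, which adds 5 unmethylated ones. The Grb10 level was 69.0 to 71.5% without 1 adenoma and 78.8% over all kept sites or with limits of 10 to 90%, both of which add site 2. The median SD of member sites was 2.67 to 3.59 points without 1 adenoma, the lowest without Tet1 null adenoma 3, and 9.24 to 10.4 points at other sites under other depth minimums and level limits. On raw levels the median SD was 3.91 points at member sites, beside 9.79 at other sites. Only 2 of 10 windows had depth for levels per adenoma. With 2 or 3 adenomas per genotype, odds differences inside the intervals given remained possible.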

Other observations

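The adenoma left out for depth, double heterozygous adenoma 3, gave levels at the same sites from 6 to 252 reads. Its Grb10 sites stood at 73.9 and 88.9%, inside the range of the other 11 adenomas. Gnas site 5 was at 17.9% from 24 reads (raw 95% exact interval 4.74 to 37.4%), below the lowest of the 11 at 35.0%. Gnas site 7 was at 44.7% from 148 reads (raw interval 34.5 to 51.0%), above the highest of the 11 at 36.8%, and site 8 at 49.3% from 36 reads (raw interval 30.4 to 64.5%), above the highest at 35.4%. Sites 10 to 14 had 0 methylated reads in it, with upper limits of the 95% exact interval from 1.45% at site 11 to 45.9% at site 13, which had 6 reads.

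Outside the imprinted windows the partly methylated sites with the smallest spread lay near the limits of 20 and 80%. The steadiest, chr13 49302547, averaged 21.5% with an SD of 1.75 points and values of 19.3 to 24.4%. Next came chr2 151795672 at 80.3% (SD 2.37 points) and chr16 21292887 at 23.7% (SD 2.39 points). These sites were listed after their values were seen, and none lay in the further list of imprinted windows.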
